A study of Homo sapiens with 16 samples.

Results

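The Hippo pathway and the genes driven by its effectors YAP and TAZ were followed across Caco-2 cultures on an intestinal villus-on-chip. The set holds 34 of the 61228 gene rows in each deposited table and was taken by gene symbol, with earlier results of these data known. It divides into 22 parts of the pathway and 12 target genes, and 4 of the pathway parts (LATS2, AMOTL2, PTPN14 and AJUBA) are known as targets too. Of the 34 members, 33 had at least 20 counts over the 12 libraries compared below. The exception was CCN2.

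Caco-2 is a human colorectal carcinoma line whose cells polarise into an enterocyte-like sheet. The chip moves its villi by magnetic actuation, and messenger RNA of 16 cultures was sequenced after polyT purification, with no step in the protocol that marks the strand. The labels give 4 treatments with 4 replicates each, namely an induction of inflammatory bowel disease (IBD), a physiological swing, a pathological swing and a static control. All 4 groups are the same cell line on the device, and no allele, transgene or other agent is named for any of them. The tables carry the codes IBD, VOS2, VOS1 and NOS1. IBD was taken as the induction, and NOS1 as the static control by elimination. VOS1 and VOS2 are swing tables, and nothing in the labels assigns a swing type to either code, so they are called by their codes throughout. The design text writes the induced group as IBD-VOS, without saying how its chips were moved, and the sources used here give neither the inducing agent nor its dose or time. Swing and induction therefore cannot be told apart in the comparisons of IBD. The replicates are described as biological, but separate cultures are not stated, so each p-value measures only how these samples spread, which may be technical. In bulk RNA a fall of a transcript through fewer expressing cells and through less RNA per cell cannot be told apart.

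The Hippo pathway is a kinase cascade that restrains growth. The kinases MST1 and MST2 (genes STK4 and STK3), with the scaffold SAV1, activate LATS1 and LATS2, which act with MOB1A or MOB1B and phosphorylate the cofactors YAP (YAP1) and TAZ (WWTR1), so that these are held in the cytoplasm and degraded. Without that phosphorylation, as in cells that are spread, stretched or on a stiff support, YAP and TAZ enter the nucleus and bind TEAD proteins, which carry them to DNA, often beside AP-1 factors. CCN1, CCN2 and ANKRD1 are the targets most used as readouts. LATS2, AMOTL2, PTPN14 and AJUBA act back on YAP, TAZ or the kinases while being transcribed under YAP, as parts of feedback. In the intestine YAP is known for its role in regeneration after injury. The measurements here are of RNA, and the phosphorylation or place of the YAP and TAZ proteins was not measured.

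The sequences before the starts of 3 targets are shown because these genes are the usual readouts or are among those past the test: ANKRD1, lower in IBD than in VOS2, FJX1, lower in IBD than in both VOS2 and NOS1, and CCN2, the readout that could not be measured. Each is the 250 bases upstream of the transcript start in RefSeq (GRCh38.p14), read 5′ to 3′ along the gene's strand. Capitals mark the core TEAD motif GGAATG and the AP-1 motif TGANTCA, each searched on both strands. The windows are ANKRD1 at chr10:90921088-90921337 on the minus strand, CCN2 at chr6:131951373-131951622 on the minus strand and FJX1 at chr11:35618210-35618459 on the plus strand.
ANKRD1: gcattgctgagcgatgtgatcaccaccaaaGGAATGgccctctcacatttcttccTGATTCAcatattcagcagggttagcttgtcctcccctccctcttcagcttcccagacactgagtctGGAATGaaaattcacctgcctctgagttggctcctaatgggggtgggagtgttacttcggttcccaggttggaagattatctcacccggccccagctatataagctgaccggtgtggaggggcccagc
CCN2: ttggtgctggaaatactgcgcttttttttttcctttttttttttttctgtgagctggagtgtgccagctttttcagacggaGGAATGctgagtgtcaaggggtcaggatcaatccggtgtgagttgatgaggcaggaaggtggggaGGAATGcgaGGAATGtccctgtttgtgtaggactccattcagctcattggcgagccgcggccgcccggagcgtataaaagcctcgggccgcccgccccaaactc
FJX1: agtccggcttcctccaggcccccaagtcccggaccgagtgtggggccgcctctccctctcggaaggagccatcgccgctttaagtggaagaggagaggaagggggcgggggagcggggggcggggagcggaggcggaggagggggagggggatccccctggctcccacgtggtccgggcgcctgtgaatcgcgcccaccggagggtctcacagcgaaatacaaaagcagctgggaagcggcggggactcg
The ANKRD1 window held the TEAD motif 220 and 128 bases before the start and the AP-1 motif 195 bases before it, with no overlap between them. CCN2 held the TEAD motif 169, 104 and 95 bases before its start and no AP-1 motif, and FJX1 held neither. Windows were found for 27 members, 40 windows in all, and the TEAD motif stood in 8 of these 40 (20%) against 11.9% of all 35116 windows. The genes were AJUBA, AMOTL2, ANKRD1, AXL, CCN2, PTPN14, TGFB2 and YAP1. No window was available for CCN1, ARHGEF17, CRIM1, TEAD1 and TEAD4 among others, so these were not searched. The AP-1 motif stood in 4 of the 40 (10%), at ANKRD1, F3, LATS1 and MOB1B, against 6.57% of all windows. A match is a run of letters and not a binding site, and its absence speaks only of these letters in this window.

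Total counts per library were 16307998 to 20609117 in IBD, 15078620 to 18865457 in VOS2, 17537880 to 20021726 in NOS1 and 21868713 to 28148186 in VOS1. The length implied by counts and FPKM agreed within 1% among IBD, VOS2 and NOS1 for all 12305 genes where it could be computed, and was shorter in VOS1 by over 1% for 96.1% of them. For YAP1 it was 122978 bp in the first 3 tables, about the whole gene with its introns, and 6311 bp in VOS1, about its exons. IBD, VOS2 and NOS1 were therefore tested together, and VOS1 is described apart with no test. The label of the cells was checked with 12 markers of intestinal epithelium, 11 of which reached 1 CPM (the count as a share of the library total, scaled to 1e6) in each table, with summed levels of 10359 to 10877 CPM in IBD, 11278 to 13037 in VOS2 and 9657 to 13060 in NOS1. Of 8 fibroblast markers 4 reached 1 CPM in each of these tables, with sums of 27.3 to 52.0 CPM in IBD, 34.6 to 44.0 in VOS2 and 31.0 to 45.7 in NOS1, and THY1 was at 0 in all 3. Of 7 endothelial markers 2 reached it (14.4 to 25.4, 18.2 to 19.5 and 15.2 to 20.9 CPM in IBD, VOS2 and NOS1), with KDR at 0. Of 8 leukocyte markers 3 reached it, with sums of 33.4 to 35.4 CPM in IBD, 17.9 to 20.4 in VOS2 and 18.3 to 19.3 in NOS1, and CD2 was at 0 in all 3. Single markers moved in either direction. LYZ, the lysozyme gene that Paneth cells also express, rose in IBD (24.6 ± 1.74 CPM, against 7.89 ± 0.59 in VOS2 and 9.43 ± 1.00 in NOS1, SD, n = 4, edgeR adjusted p = 3.97e-06 and 3.35e-05). FABP1, the fatty acid binding protein of enterocytes, rose as well (825.7 ± 201.7 CPM, against 391.2 ± 60.0 in VOS2 and 414.5 ± 47.0 in NOS1, edgeR adjusted p = 0.00118 and 0.00259). The fibroblast marker LUM fell in IBD (5.40 ± 0.86 CPM, against 10.4 ± 0.75 in VOS2 and 9.73 ± 2.44 in NOS1, edgeR adjusted p = 0.0128 and 0.0216). Of the leukocyte markers CD14 fell against VOS2 (2.703 ± 0.33 against 4.62 ± 0.50 CPM, edgeR adjusted p = 0.0169) and ITGAM rose against NOS1 (7.18 ± 1.01 against 4.93 ± 0.61 CPM, adjusted p = 0.0493). Their part in the results on the pathway was not tested.

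In IBD cultures some targets of YAP and TAZ, CCN1 and ANKRD1 among them, had less RNA than in the swing table VOS2, while the other targets, YAP1 and most of the kinase cascade did not pass the test. Of the 33 measured members 8 fell and 0 rose (edgeR quasi-likelihood test, adjusted p below 0.05 over 14773 genes), against a background of 2.24% of all tested genes lower and 2.32% higher. The 8 were the targets CCN1, ANKRD1, FJX1 and ARHGEF17, the feedback genes LATS2, AMOTL2 and AJUBA, and the cofactor gene WWTR1. Fold changes were negative for 24 members and positive for 9, with a median log2 fold change of -0.13, beside -0.01 for all tested genes. All 4 IBD libraries lay below all 4 VOS2 libraries in 11 members, against 8.3% of all tested genes, and in 0 members did they lie above, against 4.45% of all tested genes. Because the members were chosen with earlier results of these data known, these counts are no independent test of the set.

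Counted by role, 4 of 11 tested target genes fell, with a median log2 fold change of -0.27. Of all tested genes 2.24% were lower, and their median was -0.01. When the 4 feedback members, all with negative fold changes, are counted with the targets, 7 of 15 fell and the median was -0.48. Among the 18 pathway members not counted here as targets 1 fell, WWTR1, and the median was -0.11. Whether some of these 18 are targets as well was not examined. These lists were set with earlier results of these data known and were not tested against each other. The replicate spread also differed by role: the coefficient of variation over 4 libraries had a median of 24.3% in IBD and 22.4% in VOS2 for targets, and of 8.09% and 9.57% for the kinases and scaffolds. The targets include NT5E and TGFB2, the measured members with the lowest CPM, and the part of expression level in this difference was not tested.

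Against the static table NOS1 7 of 33 members fell in IBD and 0 rose, with 3.01% of all tested genes lower and 2.8% higher. They were CCN1, FJX1, ARHGEF17, LATS2, AJUBA, WWTR1 and TEAD1. The median log2 fold change was -0.18, beside -0.02 over all tested genes, and 25 members were negative. The IBD libraries lay below all NOS1 libraries in 8 members, against 6% of all tested genes. Both comparisons use the same 4 IBD libraries, so they are not independent of each other. By role, 3 of 11 target genes fell (median -0.47), as did 1 of 2 cofactors, 1 of 4 TEAD genes, 1 of 10 kinases and scaffolds (median 0.03) and 1 of 6 binders (median -0.26).

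**Figure D1:**
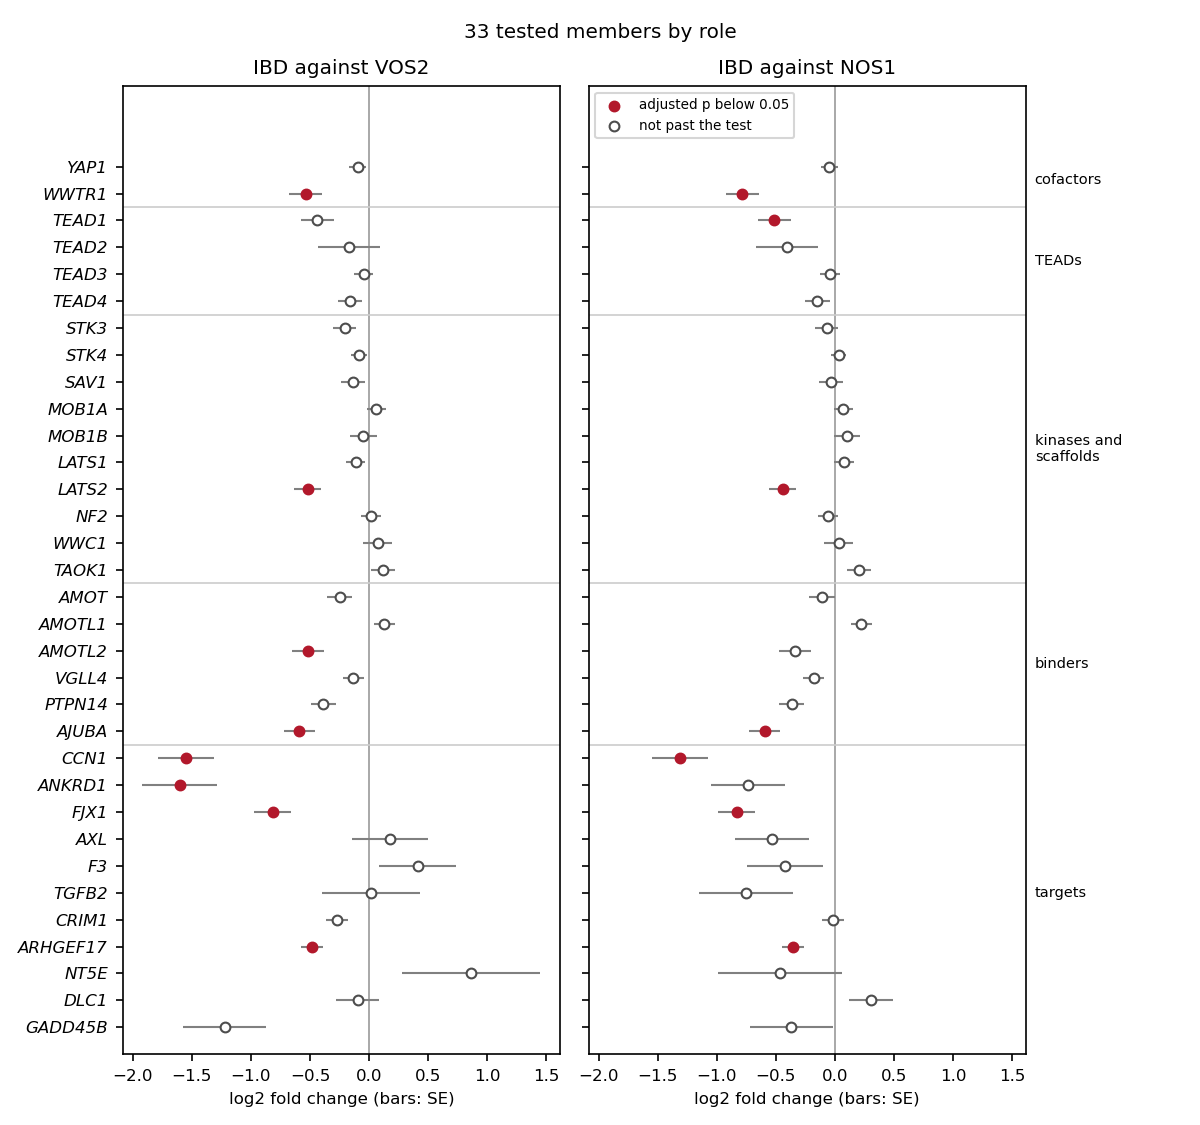
Log2 fold change (x axis, bars are SE) of the 33 tested members, ordered by role down the page, for IBD against VOS2 (left) and IBD against NOS1 (right). Filled points are past the edgeR test at an adjusted p of 0.05: 8 on the left and 7 on the right, all on the negative side.

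Among targets, CCN1 and ANKRD1 had the lowest fitted fold changes against VOS2, and CCN1 and FJX1 had the lowest against NOS1. CCN1 (CYR61), a secreted matrix protein that binds integrins, measured 30.6, 51.4, 28.6 and 28.8 CPM in replicates 1 to 4 of IBD, against 92.9, 63.7, 119.9 and 140.2 CPM in VOS2 and 98.9, 67.8, 74.9 and 110.8 CPM in NOS1. The IBD libraries lay below the other 8 without overlap, IBD replicate 2 being the highest of its group. The IBD level of CCN1 was 2.93-fold below that of VOS2 (log2 fold change -1.55 ± 0.24 SE, edgeR adjusted p = 0.00172) and 2.48-fold below that of NOS1 (-1.31 ± 0.24, adjusted p = 0.00619). The gene overlaps no other in GENCODE v29 and lies on chromosome 1 from 85580761 to 85583962 (GRCh38, plus strand), and positions of other members are from the same annotation. The length implied for CCN1, 3829 bp, is longer than its span of 3202 bp there, so the annotation used for counting differed from GENCODE v29 at this gene.

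ANKRD1, a nuclear ankyrin repeat protein first known from heart muscle, was at 45.8, 72.3, 35.4 and 38.9 CPM in IBD, against 96.0, 87.3, 179.1 and 235.0 CPM in VOS2 and 53.2, 71.2, 108.0 and 92.3 CPM in NOS1. Every IBD library was below every VOS2 library, and the IBD and NOS1 ranges overlapped. Its IBD level was 3.04-fold below that of VOS2 (-1.60 ± 0.31, edgeR adjusted p = 0.00911). Against NOS1 the log2 fold change was -0.74 ± 0.31 and did not pass (edgeR adjusted p = 0.176). The high VOS2 mean, 149.4 ± 70.5 CPM (SD, n = 4), rested on replicates 3 and 4, which were also the highest VOS2 libraries for CCN1 and for GADD45B, a stress-induced regulator of kinase signalling (9.75, 8.33, 16.8 and 33.5 CPM in VOS2 replicates 1 to 4).

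FJX1 is the human relative of fly four-jointed, a Golgi kinase that modifies the cadherins Fat and Dachsous upstream of Hippo in the fly. It was at 10.0, 11.4, 8.58 and 6.38 CPM in IBD, against 17.8, 15.8, 17.7 and 13.9 CPM in VOS2 and 16.4, 16.6, 14.7 and 18.3 CPM in NOS1. The 4 IBD values were the lowest of the 12. FJX1 in IBD was 1.76-fold below VOS2 (-0.82 ± 0.15, edgeR adjusted p = 0.00736) and 1.78-fold below NOS1 (-0.83 ± 0.15, adjusted p = 0.00737).

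ARHGEF17, a guanine nucleotide exchange factor (chromosome 11, 73308289 to 73369388, plus strand), was at 67.4, 59.3, 76.4 and 59.1 CPM in IBD, against 95.3, 87.6, 98.5 and 91.5 CPM in VOS2 and 95.7, 89.1, 78.0 and 78.2 CPM in NOS1. IBD replicate 3 was the highest of its group, and the ranges did not overlap in either comparison. The fall of ARHGEF17 in IBD was 1.40-fold against VOS2 (-0.48 ± 0.09, edgeR adjusted p = 0.0075) and 1.28-fold against NOS1 (-0.36 ± 0.09, adjusted p = 0.0368). Against NOS1 the call was lost without IBD replicate 1, 2 or 4 or NOS1 replicate 1, 2 or 4 (adjusted p 0.0204 to 0.121 with each library left out in turn).

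The other targets did not pass in either comparison. GADD45B had a log2 fold change of -1.22 ± 0.35 against VOS2 (edgeR adjusted p = 0.0627), at 5.48 to 9.48 CPM in IBD and 8.33 to 33.5 in VOS2, ranges that overlapped. Its log2 fold change was -0.67 without VOS2 replicate 4 (edgeR adjusted p = 0.219), and it passed without VOS2 replicate 2 (adjusted p = 0.0293) and with no filter (0.00649). CRIM1, a membrane protein that binds growth factors of the BMP kind, was at 51.9 to 65.2 CPM in IBD, 65.0 to 82.7 in VOS2 and 58.4 to 62.6 in NOS1. DLC1, known as a tumour suppressor, was at 7.91 to 15.0, 10.9 to 12.9 and 6.89 to 9.41 CPM in IBD, VOS2 and NOS1. Both thus overlapped between IBD and VOS2. The receptor tyrosine kinase AXL was at 16.4 to 23.3 CPM in IBD and 12.9 to 22.5 in VOS2, and F3, the tissue factor that starts coagulation, at 24.5 to 35.8 and 19.3 to 24.5 CPM. TGFB2, a cytokine of the TGF-beta family, stood at 1.23 to 2.08 CPM in IBD and 0.77 to 1.99 in VOS2, and NT5E (CD73), which makes adenosine, at 0.34 to 1.45 and 0.24 to 0.64 CPM. These 4 had positive fold changes against VOS2 (log2 0.18, 0.41, 0.02 and 0.86) and negative ones against NOS1 (-0.54, -0.43, -0.75 and -0.47), with edgeR adjusted p of at least 0.285 throughout. Their NOS1 values divide by library and are given below.

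CCN2 (CTGF), a secreted relative of CCN1, had 0 counts in each of the 12 libraries, which allows up to 0.146 to 0.199 CPM per library (3 counts of the total, counting error only). In VOS1 it had 2, 1, 3 and 1 counts. In RefSeq the whole span of CCN2 lies under the antisense gene CCN2-AS1, and in GENCODE v29 another gene's span covers 13.4% of its exon bases. The part of such overlap in the count was not tested, and the 0 does not show that the gene was silent. No comparison of CCN2 was possible.

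Of the cofactor genes WWTR1 fell and YAP1 did not pass, and the difference between the pair was not tested. WWTR1, which encodes TAZ (chromosome 3, 149517235 to 149736714, minus strand), was at 11.4, 11.4, 13.4 and 11.7 CPM in IBD, against 16.8, 17.8, 18.9 and 17.2 CPM in VOS2 and 27.6, 17.6, 16.7 and 21.9 CPM in NOS1. The IBD libraries were the 4 lowest. WWTR1 in IBD was 1.45-fold below VOS2 (-0.54 ± 0.14, edgeR adjusted p = 0.0399) and 1.72-fold below NOS1 (-0.78 ± 0.14, adjusted p = 0.0054). The call against VOS2 was lost when any 1 of the 8 libraries was left out (adjusted p 0.0528 to 0.116), and the call against NOS1 in 0 of 8 such fits (0.00215 to 0.0222). YAP1 was at 326.6, 331.3, 356.1 and 304.2 CPM in IBD, against 371.2, 365.3, 326.8 and 373.3 CPM in VOS2 and 376.6, 314.7, 335.2 and 358.2 CPM in NOS1. Its ranges overlapped in both comparisons, with log2 fold changes of -0.10 ± 0.07 against VOS2 (edgeR adjusted p = 0.517) and -0.05 ± 0.07 against NOS1 (adjusted p = 0.747).

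Of the TEAD genes, whose proteins hold YAP and TAZ on DNA, TEAD1 (chromosome 11, 12674591 to 12944483, plus strand) was at 93.6, 94.5, 84.8 and 83.8 CPM in IBD, against 123.5, 127.7, 117.4 and 124.0 CPM in VOS2 and 178.8, 100.5, 99.4 and 141.0 CPM in NOS1. The 4 IBD libraries were below the other 8. TEAD1 fell 1.43-fold in IBD against NOS1 (-0.51 ± 0.14, edgeR adjusted p = 0.0429), with the call lost without IBD replicate 1, 3 or 4 or NOS1 replicate 1 or 4 (adjusted p 0.00988 to 0.127). Against VOS2 its log2 fold change was -0.44 ± 0.14 (edgeR adjusted p = 0.0883). It passed there when the 2 tables were fitted alone, with no filter and with DESeq2 (adjusted p = 0.00282, 0.0454 and 0.0411, range over alternatives 0.00282 to 0.404). TEAD3 and TEAD4 stood at 76.9 to 98.1 and 52.2 to 72.1 CPM in IBD, 93.5 to 97.4 and 65.3 to 78.5 CPM in VOS2, and 88.1 to 105.3 and 65.6 to 76.0 CPM in NOS1. TEAD2 was at 1.53 to 2.47 CPM in IBD, 1.55 to 2.72 in VOS2 and 1.65 to 3.65 in NOS1. None of the 3 passed.

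In the kinase cascade only LATS2 of the 10 kinases and scaffolds passed, in both comparisons. LATS2 (chromosome 13, 20973032 to 21061547, minus strand) was at 28.4, 26.7, 27.8 and 19.99 CPM in IBD, against 36.0, 30.9, 42.4 and 41.1 CPM in VOS2 and 35.2, 33.5, 37.1 and 36.4 CPM in NOS1. IBD replicate 4 was the lowest library, and the IBD range lay wholly below the others. LATS2 fell 1.43-fold in IBD against VOS2 (-0.52 ± 0.12, edgeR adjusted p = 0.0198) and 1.36-fold against NOS1 (-0.44 ± 0.12, adjusted p = 0.0387). The call against VOS2 was lost without IBD replicate 4 or VOS2 replicate 3 or 4 (adjusted p 0.0121 to 0.0779). The call against NOS1 was kept only without IBD replicate 2 among the 8 libraries left out in turn (0.0437 to 0.113). Its paralog LATS1, which has the same substrates, was at 51.2 to 56.0 CPM in IBD, 54.8 to 66.0 in VOS2 and 49.6 to 57.9 in NOS1 (log2 fold changes -0.11 and 0.08, edgeR adjusted p = 0.507 and 0.633 against VOS2 and NOS1).

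The MST kinases STK3 and STK4 were at 36.4 to 41.3 and 139.1 to 147.0 CPM in IBD, 41.4 to 49.7 and 150.4 to 172.0 CPM in VOS2, and 35.2 to 46.0 and 136.6 to 151.3 CPM in NOS1. Both lay below VOS2 without overlap and did not pass (log2 fold changes -0.20 and -0.08, edgeR adjusted p = 0.275 and 0.53). Their scaffold SAV1 was at 45.7 to 58.2 CPM in IBD, 53.6 to 65.7 in VOS2 and 48.5 to 58.6 in NOS1, and did not pass. The LATS activators MOB1A (244.6 to 268.0 CPM in IBD) and MOB1B (27.7 to 32.1 CPM in IBD), the upstream regulators NF2 (35.9 to 45.1) and WWC1, which encodes KIBRA (123.4 to 178.8), and TAOK1, a kinase that acts on MST (111.9 to 145.1), overlapped VOS2 and NOS1 in every case. Their log2 fold changes ran from -0.06 to 0.20 over both comparisons.

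Among the 6 members listed as binders and competitors, AJUBA and AMOTL2 passed in at least 1 comparison, AJUBA being listed there although it acts on LATS. AJUBA, a LIM protein that inhibits LATS kinases at junctions (chromosome 14, 22971174 to 22982642, minus strand), was at 11.2, 12.5, 10.3 and 11.4 CPM in IBD, against 16.1, 14.7, 20.4 and 18.6 CPM in VOS2 and 14.6, 19.9, 16.9 and 18.3 CPM in NOS1. The IBD range lay below both others. AJUBA fell 1.51-fold in IBD in each comparison (-0.59 ± 0.13 against VOS2, edgeR adjusted p = 0.0198, and -0.59 ± 0.13 against NOS1, adjusted p = 0.019). Another gene's span covers 93.6% of its exon bases in GENCODE v29, and in RefSeq another gene covers 12.3% of its span, so its counts are uncertain. The call was lost without IBD replicate 1, 3 or 4 in both comparisons, without VOS2 replicate 3 or 4 in the first (adjusted p 0.018 to 0.0853) and without NOS1 replicate 4 in the second (0.00999 to 0.0658).

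AMOTL2, an angiomotin that holds YAP at junctions and in the cytoplasm (chromosome 3, 134355874 to 134375479, minus strand), was at 104.4, 100.9, 164.7 and 127.5 CPM in IBD, against 174.6, 151.0, 209.7 and 190.7 CPM in VOS2 and 169.7, 156.5, 145.5 and 169.3 CPM in NOS1. IBD replicate 3 lay inside the range of both others, and the other 3 IBD libraries lay below them. AMOTL2 fell 1.43-fold in IBD against VOS2 (-0.52 ± 0.14, edgeR adjusted p = 0.0456), and only fits without IBD replicate 3 or VOS2 replicate 2 kept the call (adjusted p 0.00634 to 0.157 over the 8). Against NOS1 it did not pass (-0.34 ± 0.14, adjusted p = 0.155), except without IBD replicate 3 (0.0383, range 0.0383 to 0.34).

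PTPN14, a tyrosine phosphatase that binds YAP, was at 16.2 to 19.6 CPM in IBD, 21.4 to 28.9 in VOS2 and 22.5 to 26.7 in NOS1. Its IBD range was below both others and its adjusted p lay just above 0.05 (edgeR, 0.0504 against VOS2 and 0.0548 against NOS1, log2 fold changes -0.39 ± 0.11 and -0.36 ± 0.11). PTPN14 passed in both comparisons with library size alone and with DESeq2, and against VOS2 also without VOS2 replicate 2. Over the edgeR, DESeq2 and limma alternatives its adjusted p ran from 0.0234 to 0.236 against VOS2 and from 0.0293 to 0.284 against NOS1. Another gene's span covers 54% of its exon bases in GENCODE v29, and in RefSeq other genes cover 2.7% of its span. AMOT and AMOTL1, relatives of AMOTL2, were at 35.7 to 40.9 and 100.01 to 123.5 CPM in IBD, and VGLL4, which competes with YAP for TEAD, at 26.9 to 32.3 CPM. None of these 3 passed. AMOTL1 had a positive fold change in both comparisons (0.13 and 0.22).

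**Figure D2:**
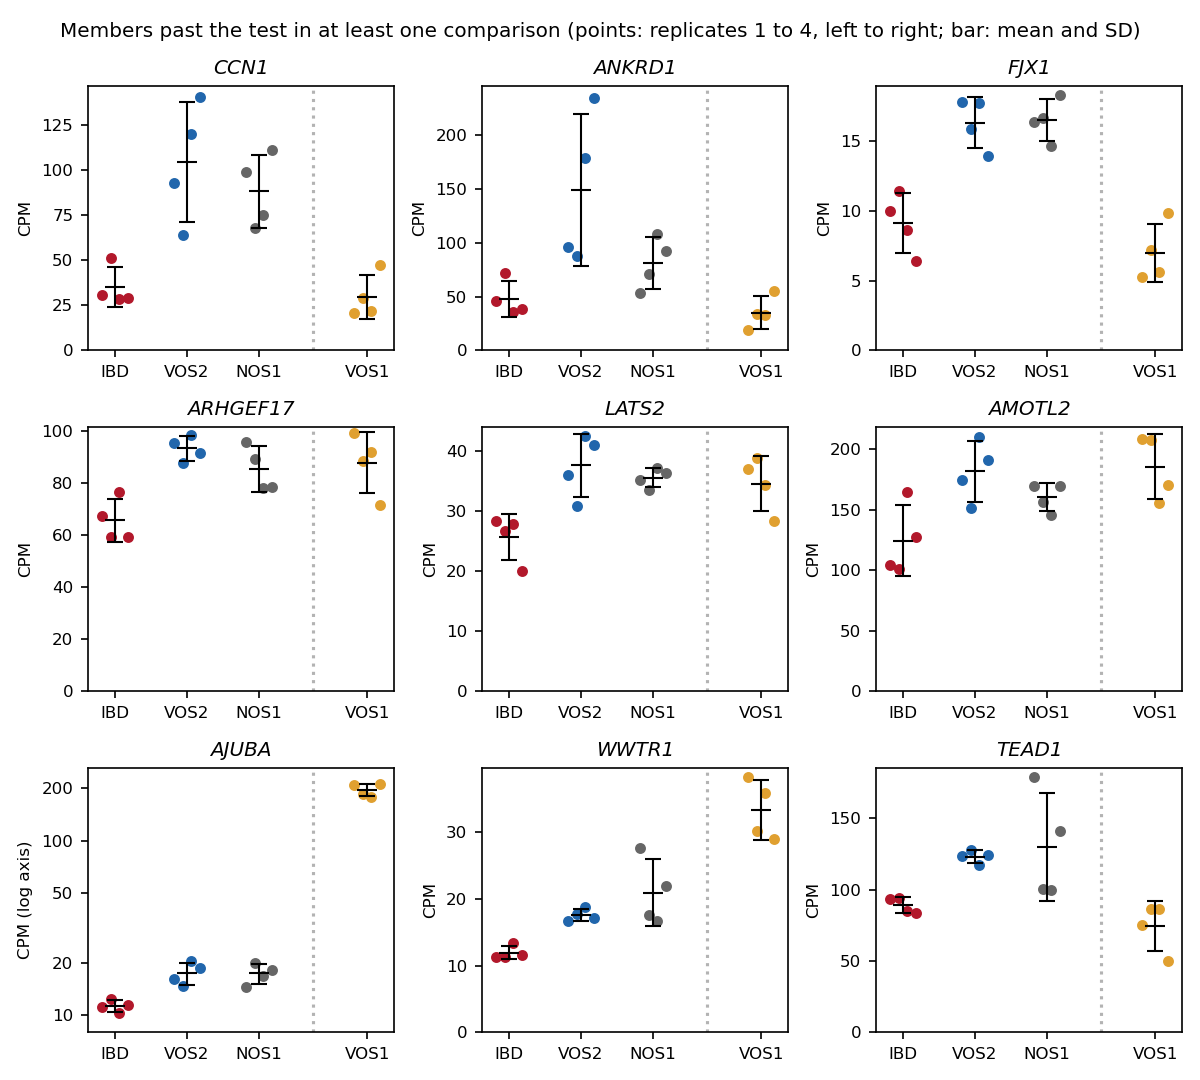
CPM per library (y axis, log scale for AJUBA) of the 9 members past the test in at least 1 comparison, in IBD, VOS2, NOS1 and, right of the dotted line, VOS1, with points for replicates 1 to 4 and bars for mean and SD. The IBD points lie below all VOS2 and NOS1 points except for ANKRD1, where IBD and NOS1 overlap, and AMOTL2, where IBD replicate 3 at 164.7 CPM does.

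Libraries of a group differed in ways that bear on these calls. NOS1 replicates 1 and 4 stood apart from replicates 2 and 3 in the keratin KRT7 (263.2 and 220.5 against 59.2 and 22.3 CPM), the mesenchymal filament VIM (92.6 and 74.8 against 19.4 and 6.81 CPM) and the adhesion receptor CD44 (57.1 and 40.3 against 10.0 and 5.68 CPM). The same libraries were high in AXL (44.9 and 44.4 against 16.6 and 13.5 CPM), F3 (67.5 and 54.1 against 18.9 and 18.7 CPM), TGFB2 (4.15 and 3.499 against 1.14 and 1.34 CPM) and NT5E (1.90 and 1.77 against 0.40 and 0.46 CPM). CCN1 (98.9 and 110.8 against 67.8 and 74.9 CPM) and GADD45B (12.0 and 10.5 against 7.47 and 7.53 CPM) were higher there by a smaller factor, as were WWTR1 and TEAD1 with the values given before, and YAP1 was higher by less again (376.6 and 358.2 against 314.7 and 335.2 CPM). In all, replicates 1 and 4 both lay above replicates 2 and 3 in 14 of the 33 measured members, against 28.8% of all tested genes, and both below in 3 (TEAD4, AMOT and CRIM1), against 16.2%. This split was set with earlier results of these data known, so the counts describe it and do not test it. For AXL, TGFB2 and NT5E, NOS1 replicates 2 and 3 were within the VOS2 range. The part of whatever sets these 2 libraries apart was not tested. Without them 4 members fell against NOS1, at log2 fold changes of -1.03 for CCN1, -0.77 for FJX1, -0.52 for WWTR1 and -0.69 for AJUBA (edgeR adjusted p = 0.0487, 0.0429, 0.0437 and 0.0243). ARHGEF17 and LATS2 did not pass in that smaller fit at nearly the same log2 fold changes as with all libraries (-0.34 and -0.45, edgeR adjusted p = 0.127 and 0.138), whereas that of TEAD1 shrank to -0.16 (adjusted p = 0.396). AXL, F3, TGFB2 and NT5E then had positive log2 fold changes in IBD (0.42, 0.63, 0.25 and 0.89) that did not pass (edgeR adjusted p = 0.317, 0.0563, 0.794 and 0.502). Without IBD replicates 3 and 4, 3 members passed against VOS2 (CCN1, ARHGEF17 and AMOTL2) and 2 against NOS1 (WWTR1 and AMOTL2). No values that set these IBD libraries apart are given here.

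**Figure D3:**
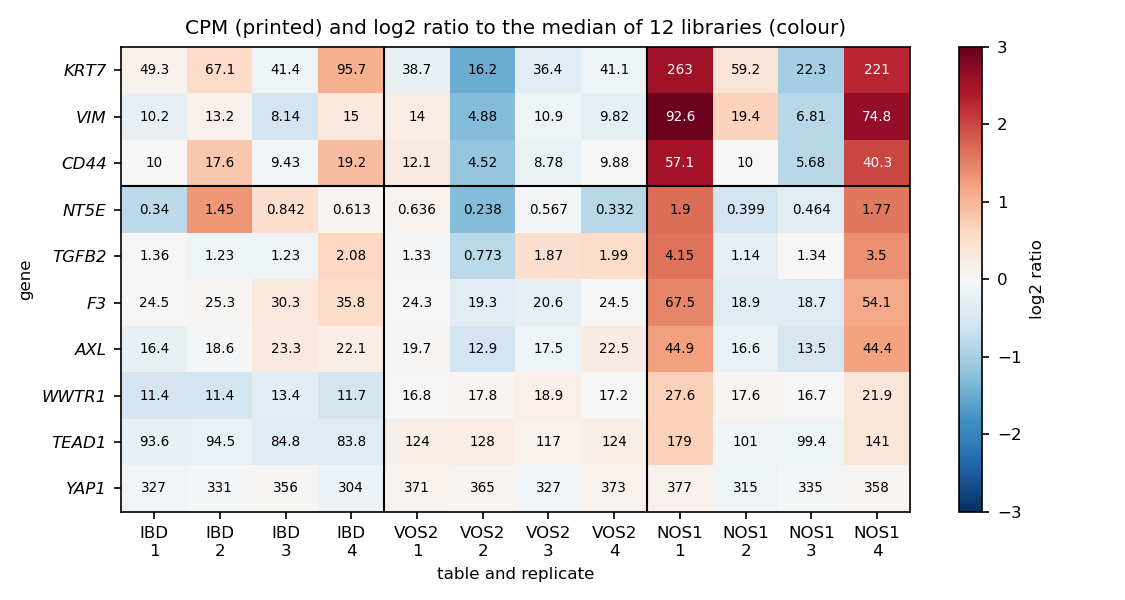
CPM (printed) and log2 ratio to the gene's median over 12 libraries (colour) of KRT7, VIM, CD44 and 7 members, by library in IBD, VOS2 and NOS1. NOS1 replicates 1 and 4 are red in the upper rows, with 263 and 221 CPM of KRT7, and pale for YAP1.

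The effect of a swing without induction was read from VOS2 against NOS1. Here 0 of 33 members passed, and 0% of all tested genes were higher and 0% lower (edgeR, smallest adjusted p 0.319 over all genes and 0.356 among members, with 1457 genes and 8 members at an unadjusted p below 0.05). DESeq2 called 20 genes and no member. The 8 members at that unadjusted p were ANKRD1, GADD45B, DLC1, CRIM1 and LATS1, with log2 fold changes of 0.87 ± 0.31, 0.85 ± 0.34, 0.40 ± 0.19, 0.26 ± 0.09 and 0.19 ± 0.08, and NT5E, F3 and AXL, with -1.33 ± 0.56, -0.84 ± 0.33 and -0.71 ± 0.32. All 4 VOS2 libraries lay above all 4 NOS1 libraries in DLC1 and CRIM1, 2 members of 33, against 2.82% of all tested genes. VOS2 replicates 3 and 4 were the highest of the 8 libraries for ANKRD1 and GADD45B, and NOS1 replicates 1 and 4 for NT5E, F3 and AXL. Without those NOS1 libraries the log2 fold changes of NT5E, F3 and AXL were 0.02, 0.21 and 0.24. CCN1 averaged 104.1 ± 33.2 CPM in VOS2 and 88.1 ± 20.2 CPM in NOS1 (SD, n = 4 each), a log2 fold change of 0.24 ± 0.23. YAP1 and LATS2 were at 0.05 ± 0.07 and 0.08 ± 0.12, and the median over members was 0.05.

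Further genes of the pathway, from lists chosen with earlier results of these data known, were counted in the same fit. Of 9 other YAP and TAZ targets 8 were tested. GADD45A, a stress sensor related to GADD45B, fell in IBD, at 38.9 ± 3.38 CPM against 60.5 ± 7.67 in VOS2 and 52.2 ± 6.66 in NOS1 (SD, n = 4; log2 fold changes -0.61 and -0.40, edgeR adjusted p = 0.00599 and 0.0478). FOXF2, a forkhead factor of the mesenchyme, fell against NOS1 alone (0.52 ± 0.25 against 2.88 ± 2.40 CPM, edgeR adjusted p = 0.0357), and its NOS1 level was 5.24 and 4.61 CPM in replicates 1 and 4 against 1.25 and 0.41 CPM in replicates 2 and 3. Of the 8 tested, 1 thus fell and 0 rose against VOS2, where 2.24% of all tested genes were lower, and 2 fell and 0 rose against NOS1, where 3.01% were.

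Of 25 other Hippo regulators 23 were tested. Against VOS2 4 fell and 0 rose in IBD: VGLL3, a TEAD-binding cofactor (20.04 ± 1.70 against 32.6 ± 4.66 CPM, log2 fold change -0.67, edgeR adjusted p = 0.00262), the KIBRA relatives WWC2 and WWC3 (-0.61 and -0.49, adjusted p = 0.0156 and 0.00941), and WTIP, a LIM protein of the AJUBA family (-0.53, adjusted p = 0.0443). Against NOS1 VGLL3, WTIP and RASSF1, an adaptor of the MST kinases, fell (-0.42, -0.60 and -0.46, edgeR adjusted p = 0.0372, 0.0224 and 0.0346). The kinase TNIK rose there (0.43, adjusted p = 0.0461). The 4 of 23 lower against VOS2 stand beside 2.24% of all tested genes, and the 3 lower and 1 higher against NOS1 beside 3.01% and 2.8%. The median log2 fold change of the 23 was 0.02 against VOS2 and 0.04 against NOS1, beside -0.01 and -0.02 for all tested genes.

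VOS1 was counted over exon-like features and cannot be set against the other tables as a treatment. Its CPM ranges overlapped those of the other 12 libraries in 24 members, lay above them in 6 and below in 4. Of all 14773 tested genes, which do not include CCN2, 11.4% lay above and 28.6% below, beside 5 and 4 of the 33 tested members. Those above were WWTR1 (29.03 to 38.3 CPM), TEAD2 (10.0 to 14.8), CRIM1 (131.3 to 163.1), PTPN14 (62.2 to 71.9), AJUBA (177.4 to 211.6) and CCN2 with its 7 counts. In GENCODE v29 another gene's span covers 43.4% of the exon bases of TEAD2, 46.3% of CRIM1, 54% of PTPN14 and 93.6% of AJUBA, but 12.1% of WWTR1. In RefSeq other genes cover 8.8%, 6.4%, 2.7%, 12.3% and 3% of their spans, in that order. Below were STK3, STK4, SAV1 and F3. For FJX1 and GADD45B, whose implied lengths of 2406 and 2138 bp were equal in all 4 tables, VOS1 held 5.22, 7.21, 5.62 and 9.84 CPM of FJX1 and 7.72, 9.63, 7.36 and 9.27 CPM of GADD45B. These FJX1 values lay in and below the IBD range of 6.38 to 11.4 CPM, under the VOS2 and NOS1 ranges. Those of GADD45B overlapped the ranges of IBD, VOS2 and NOS1. CCN1, with nearly equal lengths of 3698 bp in VOS1 and 3829 bp elsewhere, was at 20.7, 29.3, 21.7 and 47.1 CPM in VOS1. These CCN1 values were below every VOS2 and NOS1 library and overlapped the IBD range of 28.6 to 51.4 CPM. How far the counting of the rest of the library moves these shares was not tested.

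Levels per length could be compared between most of the genes in VOS1, where FPKM (CPM per kilobase) is divided by about the exon length. For STK4, CCN1 and TGFB2 the implied lengths of 16570, 3698 and 6050 bp were longer than the 9075, 2455 and 5151 bp of their annotated exons. How far this moves their FPKM was not tested. For CCN2 and NT5E no length could be computed. YAP1 was the most abundant member at 46.4 ± 9.55 FPKM (SD, n = 4), and WWTR1 stood at 3.99 ± 0.53 FPKM, 25th of 34. AJUBA, MOB1A, TEAD3 and AMOTL2 followed YAP1 at 33.2 ± 2.83, 32.6 ± 3.66, 29.4 ± 1.92 and 28.6 ± 4.14 FPKM, with ranges that overlapped from each to the next. The YAP1 range of 32.2 to 52.2 FPKM overlapped that of AJUBA because of replicate 4. TEAD3 and TEAD4 (20.4 ± 4.56) exceeded TEAD1 (6.97 ± 1.62) and TEAD2 (4.19 ± 0.66) in every library. LATS2 and LATS1 had overlapping ranges at 6.16 ± 0.82 and 5.02 ± 1.54 FPKM, whereas STK4 (6.62 ± 1.07) lay above STK3 (1.57 ± 0.26). Of the targets ANKRD1 (19.6 ± 8.49) and CRIM1 (20.4 ± 1.97) were highest, CCN1 stood at 8.03 ± 3.31, and TGFB2, CCN2 and NT5E were at the bottom, at 0.134, 0.0321 and 0.0214 FPKM on average. Replicate 4 was the lowest VOS1 library for YAP1, LATS1, TAOK1, TEAD1 and AMOTL1 among others, and the highest for CCN1, ANKRD1 and FJX1.

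**Figure D4:**
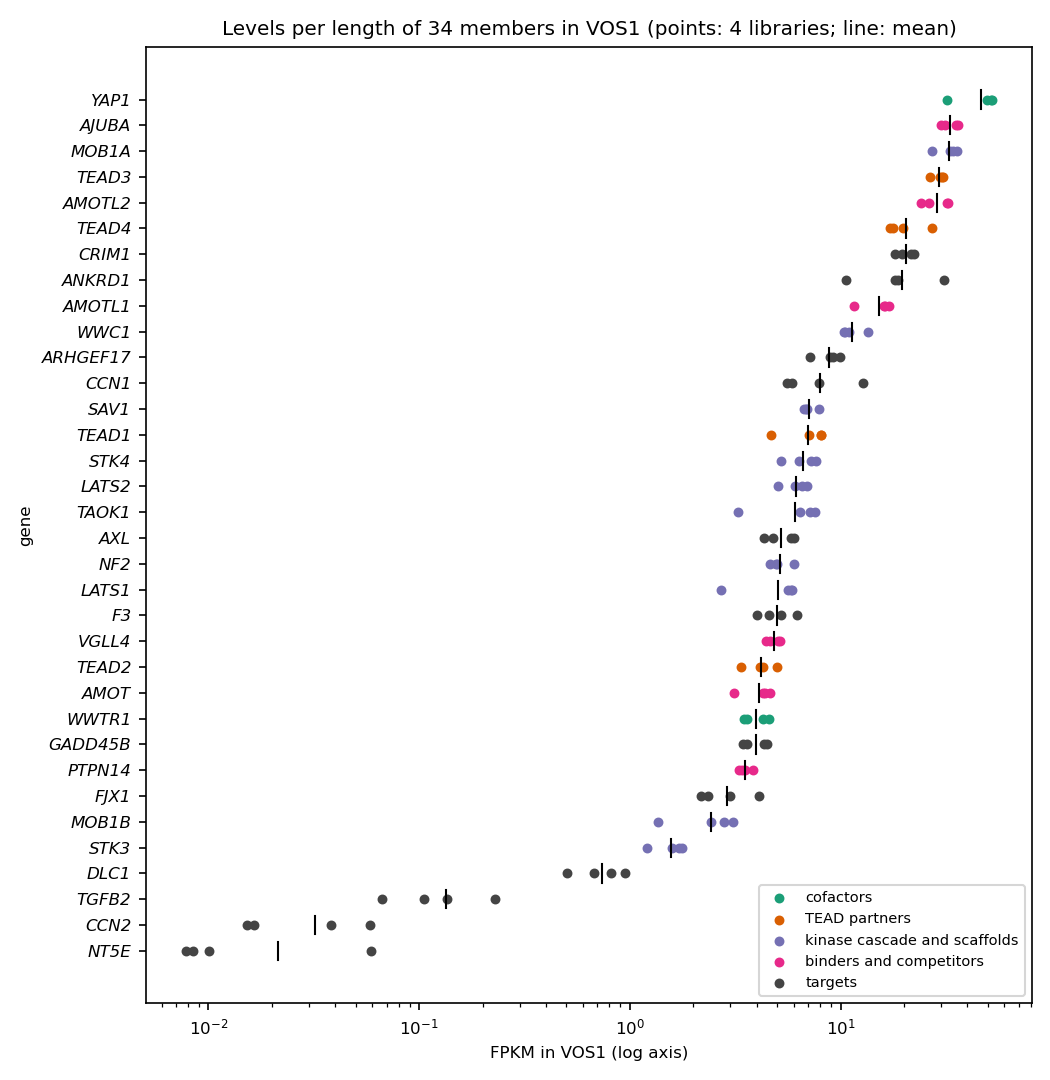
FPKM on a log axis of all 34 members in the 4 VOS1 libraries (points, with a line at the mean), ordered by mean down the page and coloured by role. YAP1 heads the order at 46.4 FPKM, WWTR1 stands at 3.99, and NT5E ends it at 0.0214.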

How the data were processed

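RNA of 16 Caco-2 libraries was measured, 4 in each of the tables IBD, VOS2, NOS1 and VOS1. Per the submitters' processing notes, the build was hg38 and the tools named, without their roles, were STAR 2.7.11a, featureCounts 2.0.6, FastQC 0.12.1, fastp 0.23.4 and DESeq2 1.42.0. The settings, strand option included, are not given in the sources here. The authors deposited raw counts per gene, whole numbers, and FPKM, which are counts scaled by feature length and library size. Each of the 4 count tables and 4 FPKM tables held 61228 gene rows, and all 32 value columns were used. The members and gene lists were chosen with earlier results of these data known.

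CPM was counts divided by the library total. Counts of the 12 libraries of IBD, VOS2 and NOS1 entered 1 quasi-likelihood fit of edgeR 4.0.16 (R 4.3.3) with 3 groups, TMM scaling and the default filter by group, which kept 14773 genes, among them all 33 members with at least 20 counts. P-values were adjusted by Benjamini-Hochberg over these genes with a threshold of 0.05. VOS1 was left out because of its shorter counted features. Members past the test in any comparison, with YAP1, WWTR1, CCN2, LATS2 and AMOTL2, are given in every library and the others by range. Alternatives were other scalings and filters, DESeq2, limma 3.58.1 on log2(FPKM + 1) and log2(FPKM + 0.1), the 2 compared tables alone, all 16 libraries, a replicate block, and libraries left out. Depth limits precision most for NT5E, TGFB2 and TEAD2, and the limit given for a count of 0 covers counting error only.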

Additional observations from a re-analysis of the deposited data

Results flagged for a closer look

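In 12 of 130 groups of 4 libraries, for the 33 measured members, 1 library stood further from the rest than Dixon's 95% critical value for the gap over the range. Chance flags about 1 in 20 groups. In IBD, CCN1 was at 51.36 CPM in replicate 2 (28.61 to 30.62 in the other 3), WWTR1 at 13.41 in replicate 3 (11.35 to 11.65) and LATS1 at 51.24 in replicate 1 (55.27 to 56.05). IBD replicate 4 was at 139.1 CPM of STK4 (146.4 to 147 in the others), 16.25 of PTPN14 (19.07 to 19.58) and 2.085 of TGFB2 (1.227 to 1.359). VOS2 replicate 4 was high in STK4 at 172 CPM (150.4 to 152.1) and in SAV1 at 65.66 (53.64 to 54.39). NOS1 replicate 1 was low in DLC1 at 6.893 CPM (9.132 to 9.408). VOS1 replicate 4 was low in YAP1 at 203 CPM (312 to 329.5), in LATS1 at 23.09 (47.8 to 50.16) and in AMOTL1 at 116.8 (161.9 to 170.7). The calls of CCN1 in IBD held without IBD replicate 2, as did that of WWTR1 against NOS1 without IBD replicate 3. The log2 fold change of WWTR1 against VOS2 was then -0.58 (edgeR adjusted p = 0.0528), and that call was lost without any 1 of the 8 libraries.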

How the results depend on the processing

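For 48 fold changes of 22 members 926 refits were made, of which 808 kept direction and side of the threshold, 89 lost a call, 13 gained one and 16 turned sign. None of the 16 was past the test in either fit. Without NOS1 replicates 1 and 4 the log2 fold change against NOS1 turned to 0.0252 for YAP1, 0.4245 for AXL, 0.6269 for F3, 0.2468 for TGFB2 and 0.8933 for NT5E in IBD, and to 0.2379 for AXL, 0.2051 for F3 and 0.0231 for NT5E in VOS2. In IBD against VOS2 that of AXL turned to -0.0286 without IBD replicates 3 and 4. That of TGFB2 turned to -0.0142 with library size alone, -0.0002 and -0.0011 with limma, -0.1781 without IBD replicates 3 and 4 and, at lowest, -0.1914 with 1 library left out. Over all 33 measured members 83 of 1911 refits turned sign, 0 of them past the test in either fit. Against VOS2 the calls of CCN1 and ARHGEF17 held under all 19 alternatives and that of FJX1 under 18, and of ANKRD1 16, LATS2 13, AJUBA 13, AMOTL2 8 and WWTR1 7. Against NOS1, under 20 alternatives, FJX1 held in 19, CCN1 and WWTR1 in 18, AJUBA in 13, ARHGEF17 and TEAD1 in 8 and LATS2 in 6.

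The 8 members past the test against VOS2 became 4 with limma at either pseudocount, 4 to 9 with each library left out in turn (4 without IBD replicate 4 or VOS2 replicate 3 or 4, and 5 without IBD replicate 1) and 3 without IBD replicates 3 and 4. All genes past it there, 674, became 1065 with DESeq2, 377 and 368 with limma on log2(FPKM + 1) and log2(FPKM + 0.1), 316 to 961 with each library left out and 222 without IBD replicates 3 and 4. Against NOS1 the 7 members became 1 and 3 with limma, 3 with the 2 tables alone, 4 with all 16 libraries, 3 to 6 with each library left out (3 without IBD replicate 1 or 4 or NOS1 replicate 4, and 4 without NOS1 replicate 1), 4 without NOS1 replicates 1 and 4 and 2 without IBD replicates 3 and 4. All genes there, 858, became 1294 with no filter, 1373 with DESeq2, 223 and 255 with limma, 233 with the 2 tables alone, 305 to 1351 with each library left out, 362 without NOS1 replicates 1 and 4 and 155 without IBD replicates 3 and 4. Between VOS2 and NOS1 the 0 genes became 255 with no filter, 20 with DESeq2 and 0 to 376 with each library left out (376 without NOS1 replicate 3), and the members stayed at 0. Fits without libraries hold fewer samples, and the cause of the other shifts was not tested.

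With the replicate block, 7 members and 418 genes passed against VOS2, 5 and 593 against NOS1 and 0 and 0 between VOS2 and NOS1. Same-numbered libraries are not stated to be paired, and the correlations of their deviations ran from -0.23 to 0.19.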
